A study of Mus musculus with 6 samples.

Results

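Aldo-keto reductases are NADPH-dependent enzymes that reduce aldehydes, ketones and ketosteroids to alcohols. In the ovary the best known is Akr1c18, a 20-alpha-hydroxysteroid dehydrogenase that turns progesterone into an inactive product and is typical of the corpus luteum at the end of its life. Prolactin is known to hold the gene down, and prostaglandin F2-alpha, acting through its receptor Ptgfr, is known to raise it. The 8 genes described here are Akr1c18, Akr1c14, Akr1c12, Akr1c13 and Akr1c19 of the AKR1C subfamily and Akr1b7, Akr1b3 and Akr1b8 of the AKR1B subfamily, out of 19423 genes in the deposited gene table. They were taken by gene symbol. The list was drawn up with the difference in Akr1c18 between tumor and control already known. Values of the 8 genes in that comparison are therefore a description, given without p-values.

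Ovaries of balb/c-nude mice, athymic animals in which human cells can grow, were profiled by RNA sequencing at day 80. The control group held 3 mice labelled Control, with no injection named. The tumor group held 3 mice labelled Tumor, which carried subcutaneous grafts of a cancer cell line that the labels spell MBA-MD-231. The treatment label ends in 231, 232 and 233 for tumor replicates 1, 2 and 3, while the cell line label does not change. No label names the animals' age, litter or stage of the estrous cycle. The samples were counted as separate animals only because they are listed separately, so p-values measure the spread between these samples. Each library held between 18278614 and 19238900 estimated counts. Ovarian markers were present in every library, with summed levels of 9 granulosa cell genes between 2760 and 4854 CPM (counts scaled to a common library size) and of 9 oocyte genes between 311.9 and 420.4 CPM in control and between 485.7 and 628.8 CPM in tumor. Tumor replicate 1 stood apart. Its 12 luteal markers summed to 2890 CPM, against 9268 and 10160 in the other tumor libraries and 16350 to 17370 in control. Its 8 adipocyte markers summed to 7574 CPM, against 683.8 and 3081 in the other tumor libraries and 490.6 to 697.3 in control. Control replicate 2 stood apart within its group, with chi-square per degree of freedom of 38.03 and 42.36 against the other control libraries, which differed by 12.6. The androgen-making gene Cyp17a1 had 2667 CPM there, against 14.3 and 22.1 in the other control libraries and 37.4, 1532 and 2271 in tumor. The luteinizing hormone receptor gene Lhcgr had 916.5 CPM there, against 137.6 and 181.2. Both genes were named after their values were seen.

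The first set of sequences shows how alike the AKR1C genes are, which decides how reads of 50 bases can be told apart. These are the first 60 coding bases, 5′ to 3′, from GENCODE M21 transcripts on GRCm38, with capitals where a base differs from Akr1c13.
Akr1c13: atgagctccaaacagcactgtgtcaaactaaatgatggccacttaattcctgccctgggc
Akr1c12: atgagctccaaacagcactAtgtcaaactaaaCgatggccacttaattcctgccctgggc
Akr1c19: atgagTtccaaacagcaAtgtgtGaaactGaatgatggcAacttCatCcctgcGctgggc
Akr1c18: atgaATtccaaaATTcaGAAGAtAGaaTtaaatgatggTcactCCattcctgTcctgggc
Akr1c14: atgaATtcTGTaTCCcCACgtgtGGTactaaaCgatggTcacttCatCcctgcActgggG
Akr1c12 differed from Akr1c13 at 2 of the 60 bases, Akr1c19 at 8, Akr1c18 at 17 and Akr1c14 at 20. Over the whole coding sequence Akr1c12 and Akr1c13 were 96.2% identical, Akr1c18 and Akr1c14 76.4%, and Akr1c18 and Akr1c13 74.1%.

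The second set shows an exon by which the 2 Akr1c18 transcripts differ. The transcript NM_134066 has 9 exons, and NM_001346535 lacks the exon numbered 4, which lies at chr13:4143218-4143295 (GRCm38, minus strand). This coding exon has 78 bases, so that leaving it out removes 26 codons without a frame shift. The transcripts have 1200 and 1103 bases, so they also differ outside this exon. The exon is in capitals with 30 bases of its neighbors, and the junction formed without it is given with 25 bases on each side.
Exon 4 kept: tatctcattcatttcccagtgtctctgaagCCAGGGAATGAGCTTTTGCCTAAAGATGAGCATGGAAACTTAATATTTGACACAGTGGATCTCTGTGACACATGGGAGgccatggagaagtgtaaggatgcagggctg
Exon 4 skipped: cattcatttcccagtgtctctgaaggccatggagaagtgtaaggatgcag

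Reads could be shared between some of these genes. An exact search of every window of 50 bases in each transcript against all GENCODE M21 transcripts on both strands found the same 347 windows in Akr1c12 and Akr1c13, 28.6% of either. Akr1c14 and Akr1c19 had no window in common with another gene. In Akr1c18, 7 of the 1151 windows of the form with exon 4 also lay in Akr1cl, an AKR1C-like gene, and all 7 touched exon 4. Akr1b8 shared 3.21% of its windows, mostly with its neighbor Akr1b10. Akr1b7 shared 15.8%, mostly with the pseudogene Gm13857, which overlaps it on the other strand and is outside the genes analysed here. Akr1b3 shared 86.2%, mostly with Gm38056, an unverified gene model on chromosome 1 likewise outside them. A deposited gene count that is not whole shows reads divided with another place. Counts lay more than 0.1 from a whole number in 5 of 6 libraries for Akr1c12, in 5 for Akr1c13, in all 6 for Akr1b8, in 4 for Akr1b7, in 2 for Akr1c18 and in 1 for Akr1b3, beside 25.7% of values over all genes with 1 transcript. Gm38056 and Gm13857 have no counts of their own here. This check therefore cannot show whether reads of Akr1b3 or Akr1b7 belong to them. Values of Akr1c12 and Akr1c13 taken singly are therefore uncertain, and their sum is given beside them.

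Across the family, mean levels in tumor ovaries were far lower for Akr1c18 and Akr1b7, lower by less for Akr1b8 and Akr1b3, and higher for Akr1c14. Of the 8 genes, 7 passed the filter on low counts and Akr1c19 did not. In edgeR's quasi-likelihood test of tumor against control, 2 of the 7, Akr1c18 and Akr1b8, were past the threshold of 0.05, both lower, beside 7.71% of all 15787 genes tested (3.91% lower and 3.8% higher). The libraries of the groups did not overlap in 4 of the 7, Akr1c18, Akr1c14, Akr1b3 and Akr1b8, beside 38.1% of all genes tested. Nothing is read from these counts, since the genes were chosen on this comparison. Their median log2 fold change was -0.50, beside -0.01 over all genes tested. In bulk tissue, fewer cells of a type and less RNA per cell cannot be told apart.

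**Figure D1:**
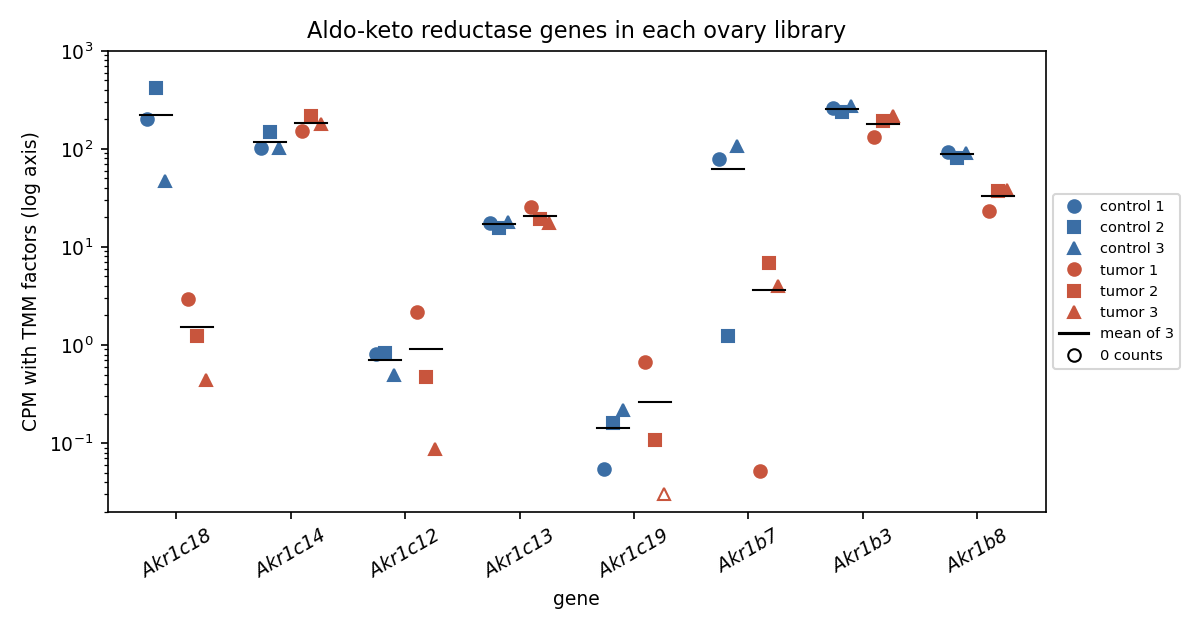
Levels of the 8 genes in each library, in CPM with TMM factors on a log axis. Points are single libraries (blue control, red tumor, shape by replicate number), black lines are means of 3, and the open symbol is a count of 0. Akr1c18 separates the groups most widely, and Akr1b7 spreads from 1.24 to 108.1 CPM within control.

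Akr1c18, the progesterone-inactivating enzyme (chr13:4132615-4150646), was abundant in control ovaries and at a few CPM or less in tumor ovaries. Its level was 200, 417.2 and 47.0 CPM in control replicates 1, 2 and 3. In tumor replicates 1, 2 and 3 it was 2.96, 1.23 and 0.437 CPM, from 57.0, 23.0 and 8.02 estimated counts. The lowest control library was more than 10 times above the highest tumor library, and the control libraries also differed widely among themselves. The log2 fold change was -7.15 ± 1.11 (SE, n = 3 each). Without control replicate 2, the library with the highest level, it was -6.25, and without tumor replicate 1 it was -8.04. The authors' deposited table gave -7.16. In both Akr1c18 and Akr1b8 the threshold was not passed when control replicate 1, control replicate 3, tumor replicate 2 or tumor replicate 3 was left out. Neither gene passed with the replicate number added to the fit as a block. Both genes were chosen on this comparison, so this only describes the calls.

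The 2 transcript forms of Akr1c18 differed in how far apart the groups lay. The form with exon 4 had 3294, 7538 and 671.8 estimated counts in control replicates 1, 2 and 3, and 0, 2.15 and 2.5 in the tumor libraries. The form without exon 4 had 408.6, 264.7 and 200.9 in control and 57.0, 20.9 and 5.51 in tumor. In CPM, the form with exon 4 averaged 205.7 in control and 0.0836 in tumor, and the form without it 15.7 and 1.46. The form without exon 4 thus held 11.05%, 3.40% and 23.0% of the gene's rounded counts in control, with exact Clopper-Pearson 95% intervals of 10.1% to 12.1%, 3.01% to 3.82% and 20.3% to 26.0%. It held 100% in tumor replicate 1 (93.7% to 100%), 91.3% in replicate 2 (72.0% to 98.9%) and 75.0% in replicate 3 (34.9% to 96.8%). All 3 tumor libraries lay above all 3 control libraries. These intervals treat every rounded count as a read seen to come from a single form. They do not cover the division of reads between transcripts by the authors' software. Of the transcript windows of 50 bases, 151 of 1151 are found in the form with exon 4 and not in the other, and 54 of 1054 the other way round. Most reads therefore do not tell the forms apart, and the intervals above are too narrow. Some of the windows that tell them apart touch neither exon 4 nor its junction, because the forms also differ elsewhere. In the form with exon 4, 7 windows are also those of Akr1cl, which had between 1130 and 2120 CPM in each library.

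**Figure D2:**
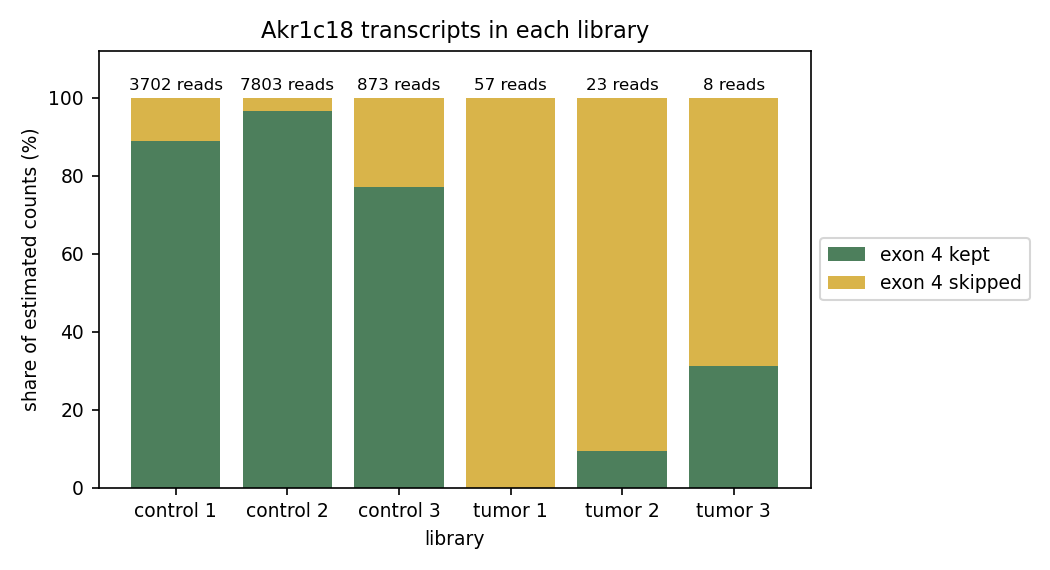
Share of the estimated counts of Akr1c18 given to each transcript form, in percent, with the gene's total above each bar. The form without exon 4 takes between 3.39% and 23.0% in control and between 68.8% and 100% in tumor, where the totals are 57, 23 and 8. These shares are of unrounded counts, so they differ from the shares of rounded counts in the text.

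The stretch before the start of Akr1c18 is shown because this gene had the largest difference of the 8. These are the 150 bases before the RefSeq start, chr13:4150647-4150796 (GRCm38.p6, minus strand), and no base is in capitals because no motif searched lay in them.
Akr1c18 promoter: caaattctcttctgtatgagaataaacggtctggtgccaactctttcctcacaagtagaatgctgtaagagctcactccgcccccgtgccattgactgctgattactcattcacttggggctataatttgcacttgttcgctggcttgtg
The search covered 250 bases before the start on both strands. The TATA box was searched as TATAAA and the CCAAT box by its own letters. The half-site of nuclear receptors, the NR5A and NR4A factors included, was searched as AGGTCA. The STAT5 element was searched as TTCNNNGAA, which 7.02% of promoters held. The AP-1 element was searched as TGANTCA, held by 6.75%. The core of the antioxidant response element was searched as TGACNNNGC, held by 10.2%. The cyclic AMP response element was searched as TGACGTCA, held by 1.55%. No 2 of the matches below overlap. None of these was found for Akr1c18, Akr1c12 or Akr1c13, which says only that the letters are not in this window. Akr1b7 held CCAAT at 2 places and AGGTCA on the opposite strand. Akr1b8 held TATAAA on the opposite strand, Akr1c14 CCAAT, and Akr1c19 CCAAT and TTCNNNGAA. Over 32851 mouse promoters of that length, 33.8% held CCAAT, 14% AGGTCA and 12.4% TATAAA. RefSeq promoters matched 7 of the 8 genes, Akr1b3 being the exception. The 150 bases before the starts of Akr1c12 and Akr1c13 were 91.5% identical, though the levels of these genes differed widely.

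Akr1c14, the 3-alpha-hydroxysteroid dehydrogenase that makes neuroactive steroids such as allopregnanolone from reduced progesterone, went the other way. Its level was 101.0, 148.0 and 101.0 CPM in control and 152.6, 214.7 and 178.4 CPM in tumor. The groups came close, since control replicate 2 lay just under tumor replicate 1. The log2 fold change was 0.64 ± 0.20 (SE, n = 3 each), between 0.50 and 0.89 with any 1 library left out. Its main transcript, NM_134072, held between 85.0% and 90.0% of the gene's counts in the 6 libraries, a narrower range than in Akr1c18.

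Akr1c13 and its near copy Akr1c12 differed from each other far more than between groups. Akr1c13 had 17.4, 15.7 and 18.1 CPM in control and 25.3, 19.1 and 17.5 CPM in tumor, with a log2 fold change of 0.27 ± 0.17 (SE, n = 3 each). That of Akr1c13 was 0.10 without tumor replicate 1 and 0.50 after a correction for gene length. Akr1c12 had 0.811, 0.828 and 0.490 CPM in control and 2.15, 0.470 and 0.0877 CPM in tumor. In both genes the highest value was that of tumor replicate 1, and the groups overlapped. The log2 fold change of Akr1c12 was 0.38 ± 0.91 and changed sign to -1.22 without tumor replicate 1. Summed, the pair had a log2 fold change of 0.27 ± 0.19. Akr1c19, which lies between them on chromosome 13, had counts of 1, 3 and 4 in control and of 13, 2 and 0 in tumor. A count of 0 allows up to 3 counts, or 0.164 CPM in tumor replicate 3, and the difference in Akr1c19 was not tested. The 13 counts of tumor replicate 1 were the highest of the 6 libraries.

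Akr1b7, first described as a protein of the mouse vas deferens, clears the aldehyde left when cholesterol is cut to pregnenolone, and also has prostaglandin F synthase activity. Its promoter is shown for the contrast with Akr1c18, as the 150 bases before the RefSeq start at chr6:34412212-34412361 (GRCm38.p6, plus strand) with a CCAAT box in capitals.
Akr1b7 promoter: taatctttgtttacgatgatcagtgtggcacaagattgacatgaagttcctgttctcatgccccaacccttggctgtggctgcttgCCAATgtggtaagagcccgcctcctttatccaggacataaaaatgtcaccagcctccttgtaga
Among the tested members Akr1b7 had the widest spread within control relative to its mean. Control replicates 1 and 3 had 78.4 and 108.1 CPM, while control replicate 2 had 1.24 CPM. The tumor libraries had 0.0519, 6.81 and 3.97 CPM. The value of tumor replicate 1 rests on 1 count, with an exact Poisson 95% interval of 0.00131 to 0.289 CPM that covers counting error only. Control replicate 2 thus lay below 2 of the 3 tumor libraries, and the groups overlapped. The log2 fold change was -4.11 ± 1.69 (SE, n = 3 each), with -4.66 when control replicate 2 was left out and -3.42 when control replicate 3 was. Control replicate 2 was also the library in which Akr1c18 was highest, so the order of the control libraries was opposite in these genes.

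Akr1b7 is also made in the adrenal cortex, so markers of that tissue were measured. Of the 6 adrenal genes, the 11-beta-hydroxylase gene Cyp11b1 followed Akr1b7 library by library. Cyp11b1 had 58.5, 0.642 and 64.4 CPM in control and 0.0519, 2.18 and 1.03 CPM in tumor. Its Pearson correlation with Akr1b7 in log2 CPM was 0.98 over the 6 libraries, a description of libraries that also share the group difference. Mrap followed Akr1b7 less closely, with a correlation of 0.57. Mc2r ran the opposite way, at 8.72, 0.959 and 2.83 CPM in tumor replicates 1, 2 and 3. Its control libraries lay between 0.540 and 0.802 CPM, and it was highest in tumor replicate 1, where Akr1b7 was lowest. Within each group, the order of the libraries for Mc2r was that of the summed adipocyte markers, and the cause was not tested. For Nr0b1 the log2 fold change was 0.30 ± 0.27, and the groups overlapped. Cyp21a1 and Cyp11b2, which define adrenal steroid synthesis and were named after their values were seen, stayed under 1 CPM in every library. The summed level of the 6 genes was 79.2 to 258.8 CPM in control and 26.5 to 68.8 CPM in tumor, with Mrap as the largest part. The part of adrenal tissue in the Akr1b7 values was not tested beyond these levels.

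Akr1b8, a reductase first found as a gene induced by fibroblast growth factor, was lower in every tumor library. Its level was 93.6, 81.5 and 90.7 CPM in control and 23.2, 37.0 and 37.9 CPM in tumor. The spread within control was small, and the lowest control value was more than 2 times the highest tumor value. The log2 fold change was -1.44 ± 0.20 (SE, n = 3 each), and with any 1 library left out it lay between -1.24 and -1.56. Summed with Akr1b7, the pair had a log2 fold change of -2.06 ± 0.40. Akr1b3 is aldose reductase, the enzyme that turns glucose into sorbitol, and it too makes prostaglandin F2-alpha. It had 259.1, 235.3 and 271.0 CPM in control and 133.3, 192.7 and 214.6 CPM in tumor. The groups did not overlap, but tumor replicate 1 carried much of the difference. The log2 fold change of Akr1b3 was -0.50 ± 0.18 and moved to -0.32 without that library.

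In levels per length, the 8 genes were not the most abundant of the family. Akr1cl led in both groups with mean FPKM of 1545 in control and 1369 in tumor, and it took between 55.7% and 69.8% of the summed FPKM of 20 family genes in each library. The aldehyde reductase gene Akr1a1 came next with 408.3 and 323.4 FPKM. In control, Akr1c18 (190.3 FPKM) and Akr1b3 (184.3 FPKM) followed, with ranges that overlapped, as the 40.5 to 361.7 FPKM of Akr1c18 also met those of Akr1b8, Akr1b7 and Akr1c14. Akr1b8 (67.6 FPKM), Akr1b7 (50.7 FPKM) and Akr1c14 (46.4 FPKM) formed the next group, in which neighbors overlapped. Akr1c13 had 13.5 FPKM, Akr1c12 0.587 FPKM and Akr1c19 0.117 FPKM. In tumor, Akr1b3 (135.7 FPKM) was the highest of the 8, followed without overlap by Akr1c14 (75.2 FPKM) and, again without overlap, by Akr1b8 (26.0 FPKM), whose range met that of Akr1c13 (17.3 FPKM). Akr1c18 went from the third place of the family in control to the 13th in tumor, at 1.49 FPKM, where its range overlapped those of Akr1b7 (3.05 FPKM) and Kcnab2 (1.42 FPKM).

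The other genes of the family formed a list of 12, of which 8 were tested. This list and the other related lists below were chosen with earlier results of these data known. Kcnab3 and Akr1b10 fell, none rose and 6 did not pass, and the median log2 fold change was -0.35. Kcnab3, a potassium channel beta subunit with an aldo-keto reductase fold, had 54.3, 39.6 and 49.0 CPM in control and 4.78, 8.95 and 9.10 CPM in tumor. Its log2 fold change was -2.65 ± 0.28 (SE, n = 3 each) with an adjusted p of 0.0256 by edgeR. An antisense transcript, Kcnab3os, overlaps 147 of its 2865 exon bases, and whether the library kept strand is not given. Akr1b10, which lies beside Akr1b8 and Akr1b7 on chromosome 6, had 60.3, 45.7 and 62.4 CPM in control and 23.9, 27.9 and 30.9 CPM in tumor. All 3 tumor libraries of Akr1b10 lay below control, with a log2 fold change of -1.03 ± 0.16 and an adjusted p of 0.0355. Akr1b10 and Akr1b8 are 85.1% identical in coding sequence. They share 31 of the 1309 windows of Akr1b8, so a small part of their reads may be divided between them. The effect of this on their values was not tested. Akr1cl had 1900, 2120 and 2115 CPM in control and 1130, 2112 and 2006 CPM in tumor, so that only tumor replicate 1 was low. Its log2 fold change of -0.23 (adjusted p = 0.569) was 0.01 without that library. The remaining log2 fold changes were -0.40 for Akr1a1, -0.56 for Akr1e1, -0.29 for Akr7a5, -0.31 for Kcnab2 and 0.35 for Kcnab1. Their adjusted p lay between 0.0557 and 0.443. Some passed under other settings, Akr1e1 without tumor replicate 1 and with DESeq2, Akr1a1 without control replicate 2 and with DESeq2, Akr7a5 without control replicate 2, and Kcnab1 with DESeq2 and on log2 FPKM.

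**Figure D3:**
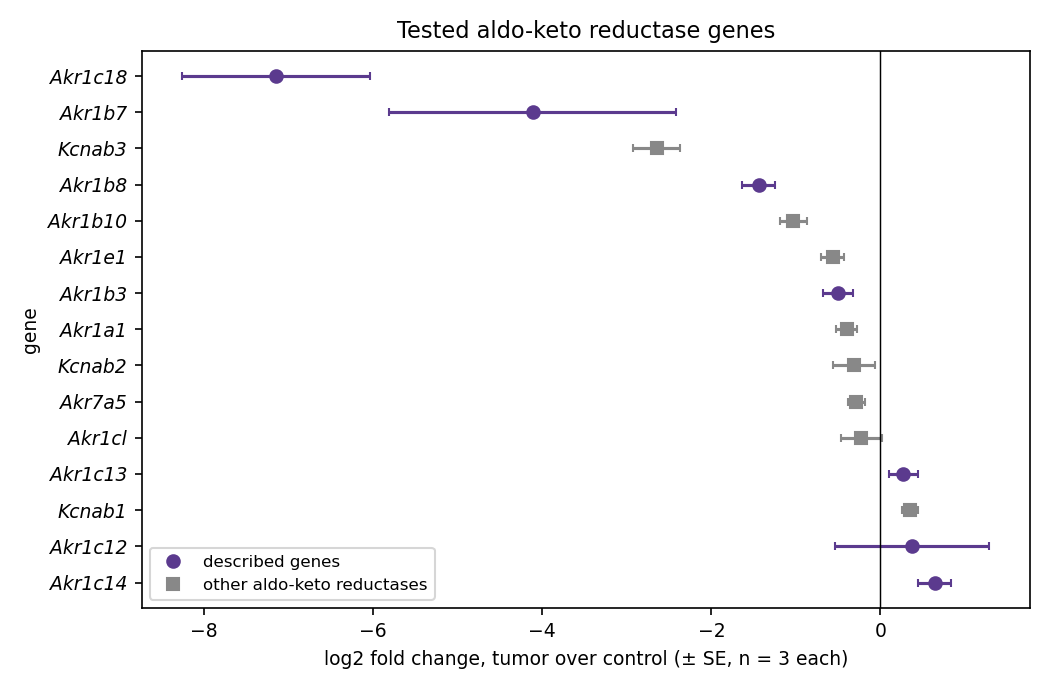
Log2 fold change of tumor over control with its standard error (n = 3 each) for the 15 tested genes of the family. Circles are the 7 tested genes described here, chosen on this comparison, and squares are the 8 other genes. Most points lie left of 0, with Akr1c18 at -7.15 and Akr1b7 at -4.11 farthest out and Akr1c14 at 0.64 farthest to the right.

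Over 5 lists of related genes, the family list included, 90 different genes were tested, of which 10 fell, 2 rose and 78 did not pass, beside 3.91% lower and 3.8% higher over all genes tested. The median log2 fold change of the 90 was -0.23. None of the 12 calls held when control replicate 1, control replicate 3, tumor replicate 2 or tumor replicate 3 was left out, though all 12 kept their direction. After a correction for gene length, 6 of the 12 held.

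Steroid-making and steroid-converting genes other than aldo-keto reductases mostly did not pass. Of 21 tested, Hsd17b11 fell and 20 did not pass, with a list median of -0.12. Hsd17b11, a short-chain dehydrogenase of lipid droplets, had 211.4, 114.0 and 164.4 CPM in control and 69.1, 75.5 and 69.6 CPM in tumor. Its log2 fold change of -1.19 ± 0.22 (SE, n = 3 each) had an adjusted p of 0.0385 by edgeR, which was 0.0513 after the length correction. Cyp11a1, which cuts the cholesterol side chain, had 7322, 6669 and 7634 CPM in control and 427.9, 2499 and 2732 CPM in tumor. The groups of Cyp11a1 did not overlap, and its log2 fold change of -1.93 ± 0.66 had an adjusted p of 0.112. It passed without tumor replicate 1 (-1.46, adjusted p = 0.0149 by edgeR) and with DESeq2 on all libraries (adjusted p = 0.00704), and not under the other alternatives, where adjusted p lay between 0.0899 and 0.265. For Star, the cholesterol carrier, the log2 fold change was -1.41 ± 0.74, and for Hsd3b1, which makes progesterone, -0.65 ± 0.34, each at an adjusted p of 0.25. The 5-alpha-reductase gene Srd5a1, which feeds Akr1c14 with its substrate, had -0.12 ± 0.74 with an adjusted p of 0.935. Control replicate 2 and tumor replicate 1 were its low libraries, at 48.6 and 24.5 CPM beside 127.2 to 163.0 in the other control libraries and 135.5 and 152.0 in the other tumor libraries.

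Prostaglandin genes included the receptor that acts on Akr1c18. Of 23 tested, Ptgfr, Ptgr1 and Ptgfrn fell, Ptges rose and 19 did not pass, with a list median of -0.29. Ptgfr, the prostaglandin F receptor, had 30, 71.6 and 26.9 CPM in control and 5.54, 1.75 and 2.66 CPM in tumor. Its control libraries were highest in replicate 2, as for Akr1c18, and its log2 fold change of -3.68 ± 0.61 had an adjusted p of 0.0385 by edgeR. For Ptges, a prostaglandin E synthase, the log2 fold change was 0.54 ± 0.12 (adjusted p = 0.0467 by edgeR). The adjusted p of Ptges was 0.0523 with no filter and 0.0770 after the length correction. Ptgr1, a prostaglandin reductase, had -0.82 (adjusted p = 0.0386), and 0.0628 after that correction. Ptgfrn, a membrane protein known to bind the F receptor, had -0.48 (adjusted p = 0.0450 by edgeR). With limma on log2 FPKM plus 1 or plus 0.1, the adjusted p of Ptgfrn was 0.0645 and 0.0651. Ptgs2, the inducible cyclooxygenase, stood at 1.84, 4.6 and 0.807 CPM in control and 1.71, 0.266 and 0.381 CPM in tumor, with overlapping groups and an adjusted p of 0.282.

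Genes of prolactin signaling and luteal regression mostly did not pass. Of 19 tested, Nr4a1 and Junb fell, Nr3c1 rose and 16 did not pass, with a list median of -0.10. Over all genes tested, 3.91% were lower and 3.8% higher. Nr4a1, the nuclear receptor known to switch on Akr1c18 downstream of prostaglandin F2-alpha, had 107.0, 56.5 and 60.04 CPM in control and 22.4, 24.7 and 21.2 CPM in tumor. Every tumor library of Nr4a1 lay below control, but its control level was lowest in replicate 2, where Akr1c18 was highest. The log2 fold change of Nr4a1 was -1.71 ± 0.27, with an adjusted p of 0.0355 by edgeR. Junb, an AP-1 subunit, stood at -1.03 ± 0.20 in log2 fold change (adjusted p = 0.0396). Nr3c1, the glucocorticoid receptor, stood at 0.74 ± 0.11 (adjusted p = 0.0343). After the length correction their adjusted p were 0.0734 and 0.0675. The prolactin receptor gene Prlr had 264.4, 316.7 and 313.2 CPM in control and 60.9, 206.0 and 224.6 CPM in tumor, without overlap. Its log2 fold change of -0.86 ± 0.47 had an adjusted p of 0.268 by edgeR. Without tumor replicate 1 it was -0.47 and passed (adjusted p = 0.0454), and under the other alternatives adjusted p lay between 0.12 and 0.446.

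Other carbonyl-metabolizing enzymes gave 2 calls. Of 20 tested, Adh1 and Aldh7a1 fell and 18 did not pass, with a list median of -0.15. Adh1, the class I alcohol dehydrogenase that also oxidizes retinol, had 1696, 955.4 and 1628 CPM in control and 139.0, 339.9 and 349.9 CPM in tumor. Its log2 fold change of -2.37 ± 0.43 had an adjusted p of 0.0386 by edgeR, which was 0.0562 after the length correction. Aldh7a1, an aldehyde dehydrogenase of lysine breakdown, had -0.57 ± 0.09 (adjusted p = 0.0355). Sord, which takes the sorbitol made by Akr1b3 on to fructose, had 58.9, 32.4 and 48.4 CPM in control and 80.6, 35.8 and 33.3 CPM in tumor, with overlapping groups and an adjusted p of 0.895.

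The 8 genes whose pattern over the 6 libraries was most like that of Akr1c18 were Cdkn1a, S100a4, Onecut2, Cited4, Lgmn, Sgk1, Prrx2 and Dcpp1. They were ranked among 828 variable genes by the Pearson correlation of log2 CPM, which lay between 0.98 and 0.99. All 6 libraries share the group difference, so this is a description, and lower levels of these genes in tumor follow from the way they were picked. Cdkn1a, the cell cycle inhibitor p21, had 58.2, 69.4 and 39.6 CPM in control and 22.2, 14.9 and 10.2 CPM in tumor, in the same order over the libraries as Akr1c18. Onecut2, a transcription factor, had 7.46, 17.7 and 7.21 CPM in control and 0.727, 0.539 and 0.390 CPM in tumor. Lgmn, the lysosomal protease legumain, and Sgk1, a kinase induced by glucocorticoids, had log2 fold changes of -1.85 and -1.83. Dcpp1, one of several near-identical genes whose reads may be split, was at 0 in tumor replicate 3. The order of the libraries for Akr1b7 was different from that of Akr1c18, with a Pearson correlation of 0.34 between them.

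**Figure D4:**
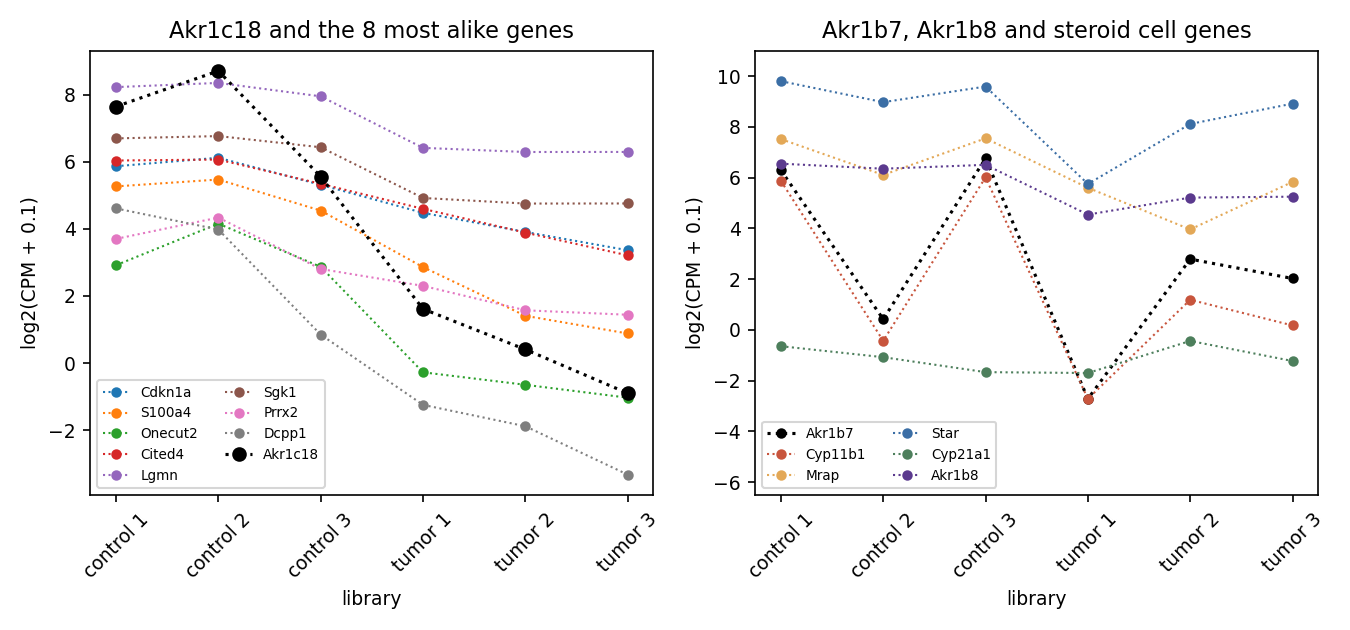
Levels per library on the scale of log2(CPM + 0.1). The left panel shows Akr1c18 in black with the 8 genes of most alike pattern, and the right panel Akr1b7 in black with Akr1b8 and steroid cell genes. Dotted lines only join the points of a gene. Cyp11b1 follows Akr1b7 in every library, Cyp21a1 stays under 1 CPM, and Akr1c18 and Akr1b7 differ most in control 2.

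Other markers moved with some of these values. Summed luteal markers were lower in all 3 tumor libraries than in control, as Akr1c18 was. In edgeR's test 3 of the 12 were past the threshold, all lower, beside 3.91% lower over all genes tested. Within the tumor libraries the order differed, with Akr1c18 highest in replicate 1, where summed luteal markers were lowest. That sum is mostly Cyp11a1 and Hsd3b1. Singly, Ptgfr (5.54, 1.75 and 2.66 CPM) and Parm1 (24.3, 10.6 and 15.9 CPM) were highest in tumor replicate 1, as Akr1c18 was. The other luteal markers were lowest there. Summed oviduct markers were 2108, 2069 and 453.8 CPM in control and 1828, 158.9 and 70.6 CPM in tumor, lowest in replicate 3 of each group, as Akr1c18 was. The same held for summed surface epithelium markers, at 708.0, 665.9 and 416.0 CPM in control and 678.0, 271.4 and 196.0 CPM in tumor. Summed adipocyte, oviduct, oocyte, surface epithelium and macrophage markers were highest among the tumor libraries in replicate 1, as were Akr1c12, Akr1c13 and Akr1c19. Summed luteal, granulosa and hepatocyte markers were lowest there. Summed oocyte markers were higher in all 3 tumor libraries than in control. Of the 9, 5 were past the threshold, all higher, beside 3.8% higher over all genes tested. No gene at all passed when control replicate 1 or tumor replicate 3 was left out, these markers included. The part of these cell types in the values of the aldo-keto reductases was not tested.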

How the data were processed

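Per the labels' protocols, Trizol was used to isolate RNA of 6 ovaries, and reads were single-end with 50 bases. The submitters' processing notes name RSEM 1.2.12, HISAT2 2.0.4, Bowtie2 2.2.5 and GRCm38.p6, without roles. Per the file headers, the authors supplied estimated counts for genes and transcripts, and FPKM for genes. The authors' deposited comparison, made with DESeq2, holds log2 fold changes. Expression columns left unused numbered 36.

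Estimated counts were rounded. Genes were kept by filterByExpr of edgeR 4.0.16 (R 4.3.3), scaled by TMM and tested with its quasi-likelihood F test (robust, group as the only term) with Benjamini-Hochberg adjustment over 15787 genes at 0.05. The SE is the absolute log2 fold change divided by the square root of F. CPM used library totals and TMM factors. Positive values mean higher in tumor. Promoters came from RefSeq (GRCm38.p6) and transcripts from GENCODE M21. No 2 libraries agreed within sampling noise (chi-square per degree of freedom of at least 12.6).

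The members and lists were chosen with earlier results of these data known. Named genes were all 8 members, up to 4 genes with the smallest p of each of the 5 related lists, a fixed panel, all tested family genes, the 2 most abundant genes of each marker list, and the 8 genes most like Akr1c18 with an average log2 CPM and an SD of at least 1. Alternatives were each library left out, a replicate block, DESeq2 size factors, DESeq2 1.42.0, no filter, a length correction, and limma 3.58.1 on log2 FPKM with 1 or 0.1 added.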

Additional observations from a re-analysis of the deposited data

How the results depend on the processing

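With single libraries left out, between 0 and 2605 genes passed edgeR's threshold, against 1217 with all 6, and between 0 and 25 of the related genes, against 12. Over all genes the counts of 0 came without control replicate 1 and without tumor replicate 3, where 3137 and 3761 genes had an unadjusted p under 0.05. For the related genes the count was also 0 without control replicate 3 and without tumor replicate 2. DESeq2 called 3029 genes and 26 related genes, and after the length correction 363 and 6 passed. With the replicate block 0 genes and 0 related genes passed, with 4233 and 34 at an unadjusted p under 0.05. Same-numbered libraries of the groups deviated together with correlations of 0.24, -0.21 and 0.53, so the numbers were not taken as pairs. DESeq2 size factors, no filter and log2 FPKM left both counts within 1.5 times. Of the 12 related calls, 12 kept their direction under every setting. With single libraries left out, the log2 fold change of Srd5a1 ran from -0.497 to 0.350 and turned without control replicate 3 (0.272) and tumor replicate 1. That of Sord ran from -0.428 to 0.338 and turned without control replicate 2 (-0.049) and tumor replicate 1. That of Akr1cl ran from -0.383 to 0.011 and turned without tumor replicate 1. Among the members only Akr1c12 changed sign, to -1.22 without tumor replicate 1, -0.16 with the block and -0.27 on log2 FPKM plus 0.1. The cause of these changes was not tested. Genes of a few counts, such as Akr1c19, are limited by depth, since a count of 0 allows up to 0.156 to 0.164 CPM.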
